A study of Homo sapiens with 12 samples.

Results

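The genes described here encode 10 transcription factors that act in the development and maturation of natural killer (NK) cells, namely TBX21 (T-bet), EOMES, PRDM1 (Blimp-1), ZEB2, ZEB1, NFIL3, ID2, ID3, TOX and RUNX3. They were listed by symbol for their known roles, at a time when earlier results of these data were known, and all 10 were found among the 17589 genes of the expression table. RNA-seq was performed on cells labelled as YT, an established human NK cell line without endogenous CD16a, which had been transduced with lentivirus and left without stimulation. The 4 groups were CTRL (eGFP alone), hnCD16 (a high-affinity CD16a that resists cleavage, with its natural cytoplasmic tail), FR1 (the same ectodomain and membrane segment joined to the signalling parts of 2B4, DAP10 and CD3ζ) and FR2 (as FR1 but without 2B4), with 3 libraries each and 12 in all. All constructs were driven by the constitutive hEF1A promoter, eGFP-positive cells were sorted and expanded after transduction, and the labels do not say whether the 3 libraries of a group came from separate cultures. The p-values therefore measure the spread between these libraries, which may be technical.

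NFIL3 and ID2 act early in the NK lineage, where ID2 and its relative ID3 bind E proteins, the basic helix-loop-helix factors that otherwise favour T and B cell fates. TOX supports the progenitor stage, and EOMES and T-bet, a pair of related T-box factors, then establish and maintain NK identity. Terminal maturation is associated with T-bet, ZEB2 and Blimp-1, while ZEB1, the paralog of ZEB2, is more typical of less mature lymphocytes. RUNX3 acts with its partner CBFB in cytotoxic lymphocytes, and its gene has a distal and a proximal promoter that give proteins with different first residues.

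The promoter letters are shown for the genes whose transcripts were at or near 0 in one pair of groups and plentiful in the other, and for both starts of RUNX3, since the shares of its transcripts differed between the groups. Each line gives the 250 bases before the transcription start on the gene's own strand, from RefSeq on GRCh38.p14. Capitals mark matches on either strand to CACCTG, the E-box that ZEB proteins bind, and to TGTGGT, the core of the RUNX motif.

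RUNX3 distal start, chr1:24965011-24965260, minus strand: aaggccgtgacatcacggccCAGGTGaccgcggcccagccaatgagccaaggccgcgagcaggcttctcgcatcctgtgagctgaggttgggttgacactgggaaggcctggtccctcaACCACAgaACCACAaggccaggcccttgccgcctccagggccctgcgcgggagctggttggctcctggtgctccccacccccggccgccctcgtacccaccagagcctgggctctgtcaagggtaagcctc
RUNX3 proximal start, chr1:24930277-24930526, minus strand: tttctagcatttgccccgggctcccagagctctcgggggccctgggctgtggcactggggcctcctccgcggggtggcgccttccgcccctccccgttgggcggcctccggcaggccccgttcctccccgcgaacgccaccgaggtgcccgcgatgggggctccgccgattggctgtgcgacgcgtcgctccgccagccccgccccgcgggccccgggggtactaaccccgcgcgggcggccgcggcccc
TBX21, chr17:47732986-47733235, plus strand: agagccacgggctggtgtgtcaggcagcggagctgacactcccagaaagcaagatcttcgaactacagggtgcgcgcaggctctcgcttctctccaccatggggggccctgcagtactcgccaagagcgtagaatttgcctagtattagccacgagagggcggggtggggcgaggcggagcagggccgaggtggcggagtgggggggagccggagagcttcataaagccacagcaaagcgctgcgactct
PRDM1, upstream start, chr6:106086086-106086335, plus strand: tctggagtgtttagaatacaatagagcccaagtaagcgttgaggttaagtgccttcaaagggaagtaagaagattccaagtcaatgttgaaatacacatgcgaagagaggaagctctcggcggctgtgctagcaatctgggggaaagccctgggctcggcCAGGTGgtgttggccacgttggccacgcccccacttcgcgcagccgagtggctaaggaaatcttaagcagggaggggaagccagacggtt
ZEB2, chr2:144520120-144520369, minus strand: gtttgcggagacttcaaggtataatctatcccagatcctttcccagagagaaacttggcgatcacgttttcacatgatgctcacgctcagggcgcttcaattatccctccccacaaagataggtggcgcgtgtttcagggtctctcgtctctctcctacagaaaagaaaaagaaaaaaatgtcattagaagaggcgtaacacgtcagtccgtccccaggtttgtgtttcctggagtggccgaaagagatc
ID2, chr2:8681806-8682055, plus strand: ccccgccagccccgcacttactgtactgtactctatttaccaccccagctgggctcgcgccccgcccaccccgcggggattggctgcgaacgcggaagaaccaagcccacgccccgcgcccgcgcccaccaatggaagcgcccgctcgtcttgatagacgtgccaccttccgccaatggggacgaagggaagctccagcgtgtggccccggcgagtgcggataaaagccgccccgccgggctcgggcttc

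The distal RUNX3 window held 2 RUNX motifs, at 131 and 123 bases before the start, and 1 E-box at 230 bases, whereas the proximal window, 34734 bases away, held neither. The proximal window was rich in CpG, with 33 CpG dinucleotides and 78.4% GC, more CpG than 91.9% of RefSeq promoters. The distal window had 13 CpG and 67.6% GC. PRDM1 had 1 E-box at 90 bases before the more upstream of its starts with a window, and no match was found in the windows of TBX21, ZEB2 and ID2. The RUNX core occurred in 3855 and the E-box in 6143 of 35116 RefSeq promoter windows (17.5% for the E-box) of this length, so such matches are common and are given as a description only. A T-box half-site (GGTGTGA, in 2.76% of promoters) and an NFIL3 site (TTACGTAA, in 0.105%) were searched as well and matched none of the members' windows. The RefSeq table gave a promoter for 9 of the 10 genes.

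The libraries held 17714566 to 18729019 counts. A gene was called where its log2 fold change was 1 or more in size and its p, adjusted by Benjamini-Hochberg over all tested genes, was at most 0.05 in edgeR's quasi-likelihood test on RSEM expected counts. CTRL and hnCD16 libraries stood apart from FR1 and FR2 libraries over the whole table, with 38.3% of 13657 tested genes called between FR1 and hnCD16 and 0.527% between hnCD16 and CTRL. Of all genes, 101 had at least 10 CPM (counts scaled to library size by TMM) in each FR1 and FR2 library and at most 3 counts in each CTRL and hnCD16 library, and 200 showed the reverse. The label as NK cells was checked against marker lists. The summed level of 12 NK cell markers was 57.5 to 64.8 CPM in CTRL and hnCD16 and 1260 to 1370 CPM in FR1 and FR2, a difference carried mainly by NKG7 (177 to 256 counts against 12711 to 14148) and PRF1. In FR1 against hnCD16, 5 of 9 tested NK markers were called higher and 2 lower, beside 18.7% higher and 19.6% lower of all tested genes. The NK receptor gene NCR1 had 0 to 5 counts in CTRL and hnCD16 and 436 to 535 with either fusion receptor, but NCR3 (101 to 109 counts against 0 to 17) and CD7 (535 to 646 against 13 to 25) went the other way, and KLRD1 had 202 to 282 counts throughout. The NK adaptor gene TYROBP had 2 to 6 counts without a fusion receptor and 0 with one. Summed T cell markers were at 833 to 979 CPM in CTRL and hnCD16 and 136 to 177 CPM in FR1 and FR2, with 10 of 11 tested markers lower and CD28 higher. Counts of CD3D, a subunit of the T cell receptor complex, were 7757 to 9903 in CTRL and hnCD16 but 0 to 3 in FR1 and FR2. Of 5 tested B cell markers, PAX5 was higher and 3 were lower, among them VPREB1 (485 to 566 counts against 0), and their sum stayed at 40.9 to 52.9 CPM. Myeloid markers summed to 4.7 to 10.7 CPM. Those of innate lymphoid cells or progenitors summed to 51.1 to 71.7 CPM in CTRL and hnCD16 and 130 to 143 CPM in FR1 and FR2, of which IL1R1 made up 105 CPM in FR1, while GATA3 was lower there. Counts of NCAM1 were 0 to 4 in CTRL and hnCD16 and 21 to 42 in FR1 and FR2, and those of GNLY were 0 to 4 and 154 to 547. The CTRL and hnCD16 libraries thus had NCR1, NCAM1, GNLY and PRF1 at or near the floor and carried T cell markers, against their label. The NK markers NCR3, CD7, KLRD1 and NKG7 nevertheless had counts there, and TYROBP was at or near the floor in all groups. Whether both pairs of groups are the same cell line was not tested. The construct and whatever else sets the pairs of groups apart cannot be told apart in this design, and in bulk RNA fewer cells of a type and less RNA per cell cannot be told apart either. The comparisons of hnCD16 with CTRL and of FR1 with FR2 lie within a pair. There too, a construct cannot be told apart from the transduced, sorted and expanded cells that carried it.

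**Figure D1:**
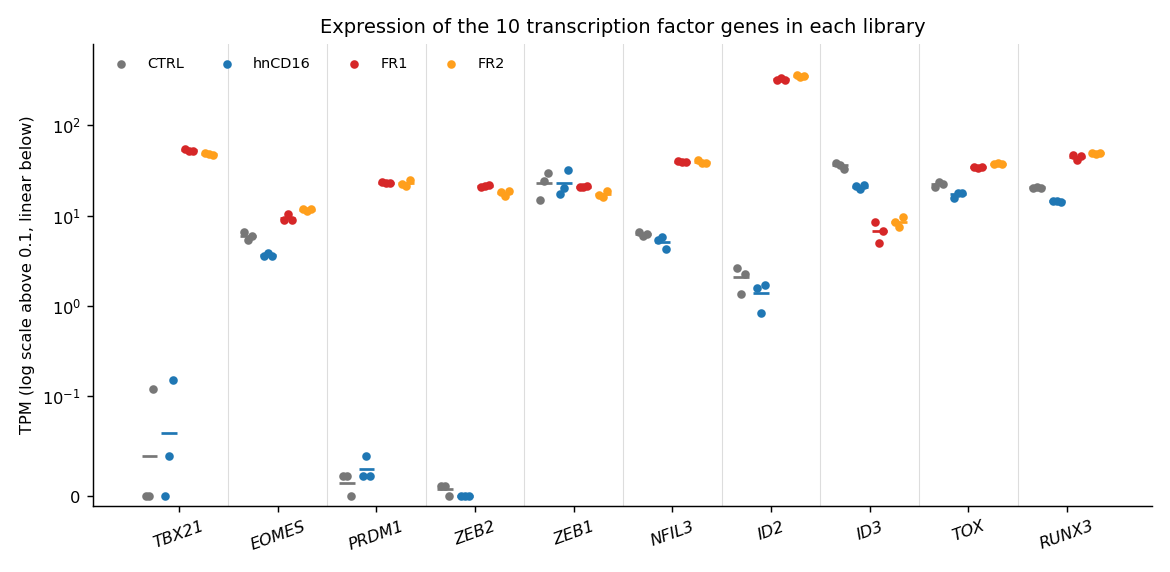
Expression as TPM (transcript abundance scaled by length and library, on an axis that is logarithmic above 0.1 and linear below) of the 10 genes, with a point for each library and a bar for the mean of the 3 libraries of a group. TBX21, PRDM1 and ZEB2 lie at or below 0.15 TPM without a fusion receptor and above 16 TPM with one, while the ZEB1 libraries of CTRL and hnCD16 spread across or around those of FR1 and FR2, which do not overlap each other.

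Expression of the NK maturation factors was first compared between the fusion receptors and hnCD16. In FR1 against hnCD16, 8 of the 10 genes were called higher, against 18.7% of all tested genes, and 1 lower, against 19.6%. TBX21, EOMES, PRDM1, ZEB2, NFIL3, ID2, TOX and RUNX3 were higher, ID3 was lower and ZEB1 was not called. The same split was obtained in FR2 against hnCD16 (8 higher against 19.6% of tested genes, 1 lower against 19.8%). Against CTRL, FR1 had 6 genes higher (18.3% of tested genes) and 1 lower (19.8%), and FR2 had 7 higher (18.7%) and 1 lower (19.6%). The median log2 fold change of the 10 genes was 2.36 in FR1 against hnCD16 and 2.42 in FR2 against hnCD16, beside −0.01 and −0.03 over all tested genes. These counts and medians include TBX21, PRDM1 and ZEB2, which had at most 4 counts in each CTRL and hnCD16 library. They passed the filter on low counts only through FR1 and FR2, so they could only be called higher there. With at least 10 counts required in every library they were not tested, and 6 genes were called in FR1 and in FR2 against hnCD16. The 4 comparisons share libraries and are not independent of each other.

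**Figure D2:**
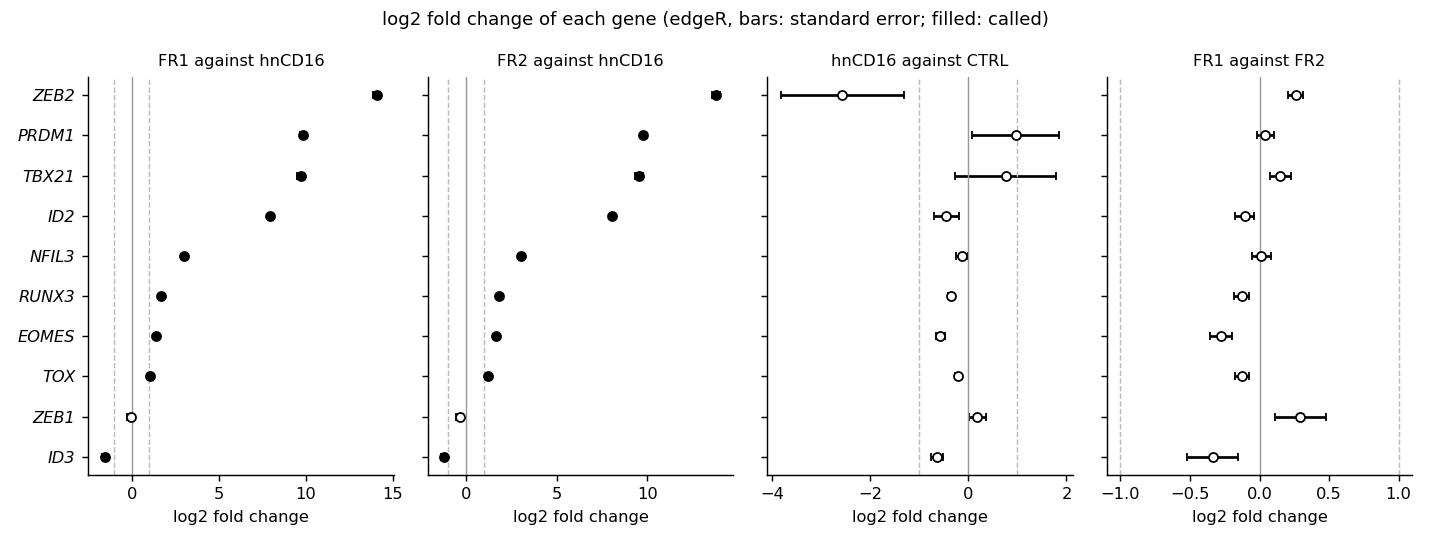
The log2 fold change (x axis) of each gene in 4 comparisons, with filled points for called genes and dashed lines at −1 and 1. Bars show the absolute log2 fold change divided by the square root of edgeR's F statistic, used as a standard error. Where a group was near 0 counts, these bars are too narrow. The axis differs between panels, and the fitted values of ZEB2, PRDM1 and TBX21 rest on 0 to 5 summed counts in the CTRL and hnCD16 groups. No point is filled in the 2 panels on the right.

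TBX21, which encodes T-bet, a driver of terminal maturation and interferon-γ production, is a single-transcript gene on chromosome 17 (47733236 to 47746122). It had 0, 0 and 3 counts in the CTRL libraries, 0, 1 and 4 in hnCD16, 1439, 1371 and 1360 in FR1, and 1300, 1306 and 1224 in FR2. Every FR1 and FR2 library was far above every other library, and the CTRL and hnCD16 libraries were near the floor of 3 counts. The ratio of summed counts was 892 in FR1 against hnCD16 (exact 95% counting interval 382 to 2750) and 805 in FR2 against hnCD16 (345 to 2480). The edgeR adjusted p was 8.79e-18 and 1.22e-17. EOMES, the related T-box factor on chromosome 3 (27715953 to 27722713), was present in all groups. Its counts were 205, 176 and 190 in CTRL, 122, 122 and 115 in hnCD16, 287, 309 and 278 in FR1, and 369, 347 and 362 in FR2. The 4 groups did not overlap for EOMES, and their order was hnCD16, CTRL, FR1 and FR2 from the lowest to the highest. EOMES was higher in FR1 than in hnCD16 by a log2 fold change of 1.38 (SE 0.0882, edgeR adjusted p 9.83e-11) and in FR2 by 1.66 (SE 0.0861, edgeR adjusted p 4.69e-12). Against CTRL its log2 fold change was 0.81 in FR1, below the fold threshold, and 1.09 in FR2. The call in FR2 against CTRL was lost with library size scaling alone (0.956) and with limma on log2(TPM + 1) (0.865) and log2(TPM + 0.1) (0.959).

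Compared per length, the dominant T-box gene was a different one in the pairs of groups. In CTRL, EOMES was at 5.97 ± 0.606 TPM (mean ± SD, n = 3) and TBX21 at 0.04 ± 0.0693 TPM. In FR1, TBX21 was at 53.1 ± 1.27 TPM and EOMES at 9.38 ± 0.825 TPM. The ratio of TBX21 to EOMES within a library was 5.08 to 6.08 in FR1 and 3.96 to 4.34 in FR2, without overlap. The log2 ratio of EOMES to TBX21 was 0.46 lower in FR1 than in FR2 (exact two-sided permutation p 0.1, the smallest that 3 against 3 libraries allow, and 0.16 adjusted over 8 ratio tests).

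PRDM1, which encodes Blimp-1, a repressor of proliferation and of early-stage genes in effector lymphocytes, lies on chromosome 6 (105992690 to 106109938). Its counts were 1, 1 and 0 in CTRL, 1, 2 and 1 in hnCD16, 1264, 1225 and 1242 in FR1, and 1216, 1152 and 1320 in FR2. No CTRL or hnCD16 library exceeded 2 counts, and the FR1 and FR2 libraries overlapped. The ratio to hnCD16 was 998 in FR1 (counting interval 389 to 3660) and 969 in FR2 (378 to 3560). In FR1 and FR2, 82.1% ± 5.15 and 85.3% ± 4.6 (SD, n = 3) of PRDM1 counts were assigned to NM_001198, the transcript of full-length Blimp-1. This transcript is known to begin at the more upstream of the 2 PRDM1 starts with a RefSeq promoter window, 12605 bases from the other. Its window is printed with its E-box. The RefSeq span of the gene begins further upstream, at 105992690, where no window was given.

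ZEB2, a zinc-finger repressor that acts with T-bet in terminal NK maturation, lies on chromosome 2 (144384081 to 144520119). It had 1, 1 and 0 counts in CTRL, 0 in each hnCD16 library, 1988, 2019 and 2040 in FR1, and 1754, 1613 and 1765 in FR2. With a floor of 3 counts for each hnCD16 library, the level of ZEB2 in FR1 was at least 719-fold higher, and for FR2 the bound was at least 599-fold. FR1 and FR2 did not overlap for ZEB2.

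ZEB1, its paralog on chromosome 10 (31318417 to 31529804), had 928, 1447 and 1734 counts in CTRL, 1119, 1267 and 1967 in hnCD16, 1281, 1267 and 1316 in FR1, and 1041, 1033 and 1133 in FR2. CTRL and hnCD16 overlapped each other and FR1 or FR2, whereas FR1 lay above FR2 without overlap. The log2 fold change was −0.07 in FR1 against hnCD16 (95% interval −0.45 to 0.30, edgeR adjusted p 0.721) and −0.37 in FR2 against hnCD16 (−0.75 to 0.01, edgeR adjusted p 0.0709). In the FR1 and FR2 libraries ZEB1 and ZEB2 were close to equal per length, with a TPM ratio of ZEB1 to ZEB2 of 0.915 to 0.997 in the 6 libraries. In CTRL and hnCD16, ZEB1 was at 22.8 ± 7.42 and 23.2 ± 7.84 TPM and ZEB2 at or below 0.01 TPM in every library. ZEB1 was called in none of the 6 comparisons. Its adjusted p in FR2 against hnCD16 was 0.0134 with the replicate number as a block, 0.0495 without a filter on low counts and 0.0148 without hnCD16 replicate 1, with log2 fold changes of −0.34, −0.38 and −0.52, below the fold threshold.

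The spread of ZEB1 was unusual in CTRL and hnCD16. Its coefficient of variation was 28.7% in CTRL and 29.9% in hnCD16, higher than in 99.7% of genes within 2-fold of its level, which had medians of 5.4% and 4.79%. In FR1 and FR2 it was 1.31% and 6.17%. In both CTRL and hnCD16, replicate 1 was the lowest and replicate 3 the highest, by −0.53 and 0.41 on the log2 scale from the group mean in CTRL and by −0.33 and 0.49 in hnCD16. Long genes moved the same way in these libraries. Among 8194 genes that reached 100 counts in each of the 12 libraries, the median of the longest 10% lay −0.12 and 0.12 from the group mean in CTRL replicates 1 and 3, and −0.05 and 0.08 in the same hnCD16 replicates. In FR1 and FR2 that median stayed between −0.03 and 0.04. ZEB1 was longer than 85.4% of these genes, and the part of transcript length in its spread was not tested. Without CTRL replicate 1 the log2 fold change of ZEB1 in hnCD16 against CTRL went from 0.18 to −0.03, and without hnCD16 replicate 3 that in FR1 against hnCD16 went from −0.07 to 0.20, none of them called.

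**Figure D3:**
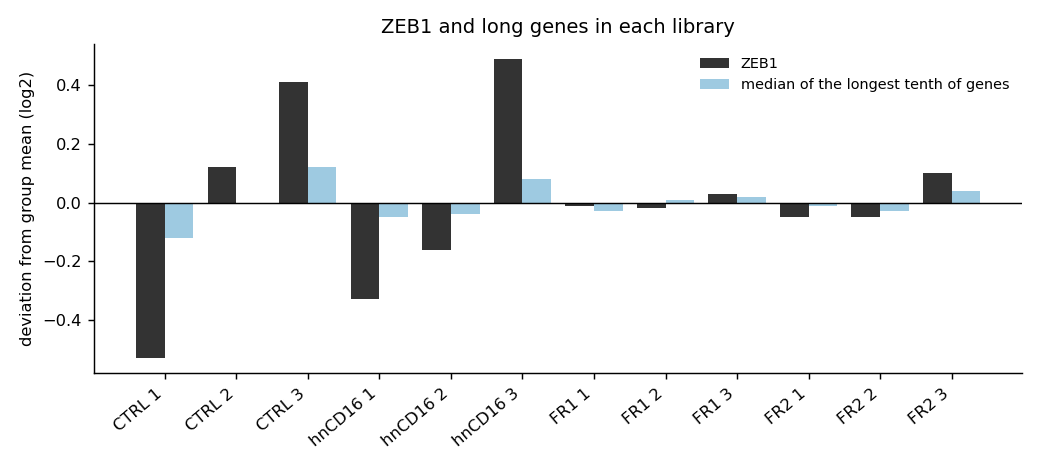
Deviation of each library from its group mean (y axis, log2) for ZEB1 (dark bars) and for the median of the longest 10% of 8194 genes (light bars). ZEB1 ranges from −0.53 to 0.49 in CTRL and hnCD16 and from −0.05 to 0.10 in FR1 and FR2, and the long genes have the same sign at replicates 1 and 3 of CTRL and hnCD16.

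ID2 and ID3, both inhibitors of E proteins, differed in opposite directions. ID2, on chromosome 2 (8682056 to 8684461), had 34, 17 and 28 counts in CTRL, 21, 11 and 22 in hnCD16, 4109, 4320 and 4085 in FR1, and 4704, 4527 and 4492 in FR2. CTRL and hnCD16 overlapped, and FR1 lay below FR2 without overlap. The ratio to hnCD16 was 248 in FR1 (counting interval 190 to 330) and 267 in FR2 (205 to 356), with log2 fold changes of 7.94 (SE 0.124, edgeR adjusted p 2.51e-19) and 8.05 (SE 0.123, edgeR adjusted p 1.99e-19). ID3, on chromosome 1 (23557926 to 23559501), went the other way, with 364, 335 and 291 counts in CTRL, 208, 186 and 200 in hnCD16, 80, 46 and 62 in FR1, and 80, 72 and 90 in FR2. Every FR1 and FR2 library was below every hnCD16 library, which in turn were below every CTRL library. ID3 was lower in FR1 than in hnCD16 by a log2 fold change of −1.56 (SE 0.156, edgeR adjusted p 4.79e-08), and in FR2 by −1.22 (SE 0.148, edgeR adjusted p 6.1e-07).

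Per length, ID3 was 12.6 to 27.3 times ID2 without a fusion receptor, and ID2 was 36.0 to 67.7 times ID3 with one. The log2 ratio of ID3 to ID2 was 9.61 lower in FR1 and 9.35 lower in FR2 than in hnCD16 (exact permutation p 0.1 for both, the smallest possible, 0.16 adjusted over 8 ratio tests). Between hnCD16 and CTRL it differed by −0.18 (exact permutation p 0.5) and between FR1 and FR2 by −0.26 (exact permutation p 0.4). ID3 is listed with 2 records of 1 transcript, between which the counts were divided equally, and their sum is given here.

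The other genes of this axis were taken from a list of 5 E protein and ID genes, of which 4 were tested. In FR1 against hnCD16, 0 were higher (18.7% of all tested genes), 2 were lower (19.6%) and 2 were not called. ID1, a further inhibitor, fell by 4.34 on the log2 scale (SE 0.423, edgeR adjusted p 3.45e-08), from 52 to 55 counts in the hnCD16 libraries to 0 to 4 in FR1. The E protein gene TCF12 was lower by 1.004 (SE 0.0544, edgeR adjusted p 9.34e-12), barely past the fold threshold. In FR1 against CTRL its log2 fold change was −0.90, which was not called. TCF3, which encodes the E2A proteins, had a log2 fold change of 0.00 (SE 0.0607) and TCF4 one of 0.82, below the fold threshold.

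**Figure D4:**
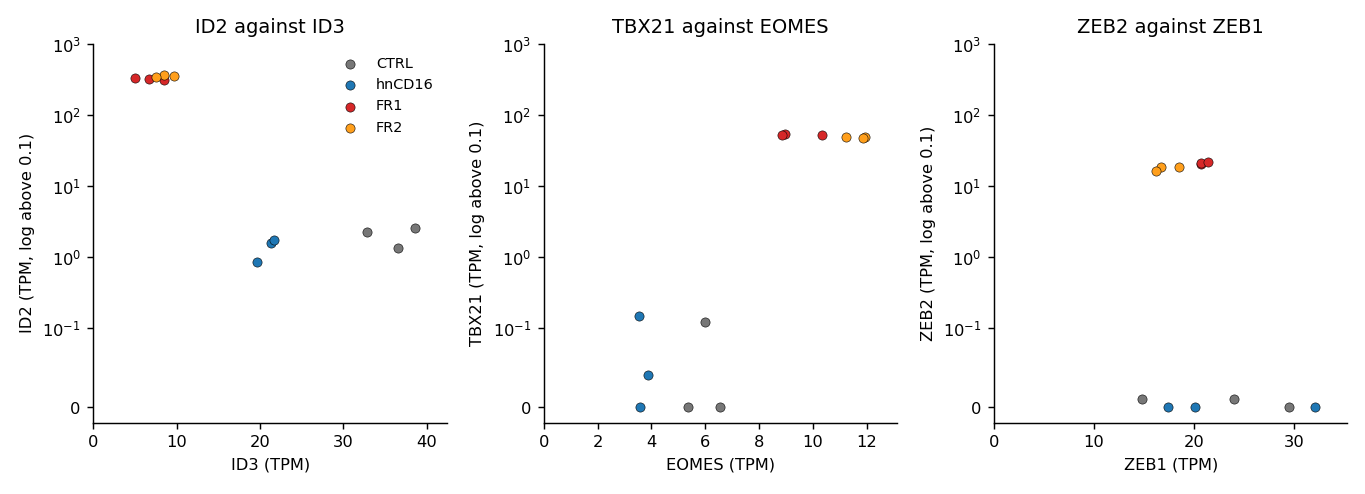
TPM of ID2 against ID3, TBX21 against EOMES, and ZEB2 against ZEB1 in each of 12 libraries (x axes linear, y axes logarithmic above 0.1). ID3 is 12.6 to 27.3 times ID2 in CTRL and hnCD16, whereas ID2 is 36.0 to 67.7 times ID3 in FR1 and FR2, while ZEB1 ranges from 14.8 to 32.1 TPM in CTRL and hnCD16 and from 16.2 to 21.4 TPM in FR1 and FR2.

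NFIL3, a basic leucine zipper factor needed for NK lineage commitment, lies on chromosome 9 (91409045 to 91483497). Its counts were 138, 120 and 123 in CTRL, 115, 122 and 88 in hnCD16, 837, 813 and 814 in FR1, and 877, 808 and 800 in FR2. The FR1 and FR2 libraries were all above the others and overlapped each other, as did CTRL and hnCD16. The log2 fold change was 3.02 in FR1 against hnCD16 (SE 0.0907, edgeR adjusted p 1.92e-15) and 3.004 in FR2 against hnCD16 (SE 0.0907, edgeR adjusted p 1.91e-15). The transcript NM_005384 held 92.0% to 100% of NFIL3 counts in the group means.

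TOX, a high mobility group factor of early NK development, had 882, 955 and 883 counts in CTRL, 682, 764 and 742 in hnCD16, 1450, 1404 and 1426 in FR1, and 1581, 1625 and 1540 in FR2. The 4 groups did not overlap. TOX lay near the fold threshold, with a log2 fold change of 1.07 in FR1 against hnCD16 (SE 0.0534, edgeR adjusted p 3e-12), 1.19 in FR2 against hnCD16, 0.85 in FR1 against CTRL and 0.97 in FR2 against CTRL. The call in FR1 against hnCD16 was lost with library size scaling alone (0.985) and with limma on log2(TPM + 1) (0.957) and log2(TPM + 0.1) (0.993).

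RUNX3, on chromosome 1 (24899511 to 24965138), had 901, 886 and 848 counts in CTRL, 655, 642 and 619 in hnCD16, 2046, 1795 and 1979 in FR1, and 2166, 2171 and 2135 in FR2. The groups did not overlap, and RUNX3 was higher by a log2 fold change of 1.70 in FR1 against hnCD16 (SE 0.0585, edgeR adjusted p 1.34e-14) and 1.83 in FR2 against hnCD16 (SE 0.0584, edgeR adjusted p 4.35e-15). Its transcripts differed more than its total. NM_001031680, the transcript known to begin at the distal promoter, had 0 estimated counts in all 6 CTRL and hnCD16 libraries. It had 1044, 1138 and 1131 in FR1 and 1032.0, 848 and 933 in FR2. NM_004350, the transcript of the proximal promoter, was at 43.4 ± 1.51 CPM in CTRL, 33.8 ± 1.8 CPM in hnCD16, 37.4 ± 3.49 CPM in FR1 and 45.4 ± 6.1 CPM in FR2 (mean ± SD, n = 3). The CPM of the proximal transcript overlapped between FR1 and hnCD16 and between FR2 and CTRL, but not between FR2 and hnCD16, where FR2 was higher, nor between FR1 and CTRL, where FR1 was lower. The distal transcript reached 63.6 ± 2.82 CPM in FR1 and 53.0 ± 4.89 CPM in FR2. The distal transcript thus made up 57.2% ± 6.18 and 43.5% ± 4.29 (SD, n = 3) of RUNX3 counts in FR1 and FR2, and the proximal transcript 98.2% in both CTRL and hnCD16.

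The distal window with its 2 RUNX motifs and the CpG-rich proximal window are those printed at the outset. Which start a transcript uses is given as background, and no read over either start was examined. The division of counts between transcripts is an estimate of RSEM, and no test was made of it. In FR1 and FR2 the other 3 RUNX3 transcript models took 2.03 to 34.7 CPM, so the share of each model is less certain there than the sum.

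Per length, the order of the 10 genes differed between the pairs of groups. In CTRL the order by mean TPM was ID3 (36.0), ZEB1 (22.8), TOX (22.2), RUNX3 (20.5), NFIL3 (6.23), EOMES (5.97), ID2 (2.07), and then TBX21, PRDM1 and ZEB2 below 0.05. The libraries of ZEB1 overlapped those of TOX, and those of NFIL3 overlapped those of EOMES. In hnCD16, ZEB1 (23.2) and ID3 (20.9) led with overlap, followed by TOX (17.2) and RUNX3 (14.4). In FR1, ID2 (323) led by far, followed by TBX21 (53.1), RUNX3 (44.3), NFIL3 (39.5), TOX (34.3), PRDM1 (23.2), ZEB2 (21.2), ZEB1 (20.9), EOMES (9.38) and ID3 (6.73), and only ZEB2 and ZEB1 overlapped as neighbours. In FR2, ID2 (351) led, RUNX3 (49.0) and TBX21 (48.3) overlapped, as did NFIL3 (39.4) with TOX (37.7) and ZEB2 (17.8) with ZEB1 (17.2), and ID3 (8.59) was again last.

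Within the pairs of groups the differences were small. In hnCD16 against CTRL, 0 of the 10 genes were called higher or lower by edgeR (0.212% and 0.315% of all tested genes), and DESeq2 and limma on log2 TPM also called 0. At an unadjusted p under 0.05, edgeR had 4 genes. The same 4 passed an adjusted p of 0.05 without a fold threshold, all lower in hnCD16, where 21.4% of tested genes were lower and 21.6% higher by that rule. They were ID3 with a log2 fold change of −0.64 (SE 0.121, edgeR adjusted p 0.00053), EOMES with −0.57 (SE 0.0937, edgeR adjusted p 0.000188), RUNX3 with −0.36 (SE 0.0602, edgeR adjusted p 0.00021) and TOX with −0.22 (SE 0.0545, edgeR adjusted p 0.00433). In each of these 4 genes all 3 hnCD16 libraries were below all 3 CTRL libraries. For NFIL3 the interval of the log2 fold change was −0.38 to 0.11 and for ID2 −0.99 to 0.10. TBX21, PRDM1 and ZEB2 had 0 to 5 summed counts per group, so that no difference between hnCD16 and CTRL was detectable at this depth.

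The constructs FR1 and FR2 differ by the 2B4 segment. In FR1 against FR2, 0 of the 10 genes were called higher or lower by edgeR (0.439% and 1.49% of all tested genes), and by DESeq2 and limma also 0. At an unadjusted p under 0.05, edgeR had 4 genes. Without a fold threshold, ZEB2 was higher in FR1 (log2 fold change 0.26, SE 0.0541, edgeR adjusted p 0.00149) and EOMES lower (−0.28, SE 0.0756, edgeR adjusted p 0.00839), where 17.7% of tested genes were higher and 18.5% lower by that rule. For the other genes the intervals were −0.01 to 0.31 for TBX21, −0.08 to 0.17 for PRDM1, −0.09 to 0.68 for ZEB1, −0.13 to 0.16 for NFIL3, −0.25 to 0.04 for ID2, −0.72 to 0.04 for ID3, −0.23 to −0.02 for TOX and −0.24 to −0.01 for RUNX3. Each of these intervals lay within a log2 fold change of 1 in either direction. A fit of the FR1 and FR2 libraries alone put 3 genes higher (24.2% of genes tested in that fit) and 4 lower (23.6%) at an adjusted p of at most 0.05. Among them was ZEB1 (log2 fold change 0.29, edgeR adjusted p 5.77e-05, against 0.229 in the shared fit, whose estimate of spread for ZEB1 includes the CTRL and hnCD16 libraries).

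Of 9 tested paralogs and partners of the 10 genes, 2 were higher (18.7% of all tested genes), 3 were lower (19.6%) and 4 were not called in FR1 against hnCD16, with a median log2 fold change of 0.28. RUNX2 was higher by 3.62 (SE 0.0864, edgeR adjusted p 6.87e-17). RUNX1, the RUNX gene of progenitors and early T cells, was lower by 2.15, with 3203 to 3372 counts in hnCD16 and 671 to 723 in FR1. TCF7 and LEF1, the paired factors of early T cell and early innate lymphoid development, were lower by 7.01 (SE 0.089, edgeR adjusted p 2.57e-20) and 5.34 (SE 0.0754, edgeR adjusted p 8.24e-20). CBFB, the partner of RUNX3, had a log2 fold change of 0.63, below the threshold. TOX2, the paralog of TOX, had 2 to 3 counts in the FR1 libraries, 26 to 49 in FR2 and at most 1 in CTRL and hnCD16. It is counted among the 2 higher genes although at the floor in FR1, and it was called lower in FR1 than in FR2 (edgeR adjusted p 8.6e-06).

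Among 24 tested genes of other factors named for NK development, 9 were higher (18.7% of all tested genes), 8 were lower (19.6%) and 7 were not called in FR1 against hnCD16, and their median log2 fold change was 0.18. ZBTB32 had 470 to 565 counts in FR1 against 0 to 3 in hnCD16, and STAT4, which transmits interleukin-12 signals, had 92 to 112 against 0 to 1. GATA2, a factor of stem and progenitor cells, went from 48 to 55 counts in hnCD16 to 0 to 1 in FR1, and IKZF2 (Helios) from 2842 to 3725 to 33 to 43. Of 12 listed genes of late NK maturation 9 were tested, of which 5 were higher, 1 was lower and 3 were not called, beside the same 18.7% and 19.6%. CX3CR1, B3GAT1 and FGFBP2 were too low to be tested, with at most 2 counts in each FR1 library. The granzyme gene GZMB had 46803 to 49153 counts in FR1 against 10 to 17 in hnCD16, and GZMH 2640 to 2669 against 1 to 3. KLRG1, an inhibitory receptor of mature cells, was lower by 2.14 (SE 0.14, edgeR adjusted p 1.37e-10). The sphingosine phosphate receptor S1PR5, a known target of T-bet and ZEB2, was at 20 to 23 counts in FR1 and 17 to 25 in hnCD16 (log2 fold change 0.10, SE 0.27, edgeR adjusted p 0.754). Of 8 tested genes of early NK maturation, 2 were higher, 3 were lower and 3 were not called, beside the same shares. IL18R1, a subunit of the interleukin-18 receptor, had 305 to 329 counts in FR1 against 0 to 1 in hnCD16. The chemokine gene XCL1 had 81 to 117 counts in hnCD16 and 0 in every FR1 library, and the adhesion receptor gene CD44 had 800 to 850 and 0 to 1.

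The genes most like ZEB2 over the 12 libraries by Pearson's r of log2(CPM + 1) were DDX3Y, which is Y-linked, ADGRG5 and SSX1, each with r = 0.9998. In all, 940 of 12339 other genes had an r over 0.99 with ZEB2, as the libraries fall into 2 sets for all of them. The genes most like ID3 were GTF3C5 (r = 0.9903), PTGES2 (r = 0.9901) and PRKD2 (r = 0.9898), and 2 genes exceeded 0.99. These values describe the 12 libraries, which share their division into the pairs of groups.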

How the data were processed

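The deposited expected counts and TPM values of genes and transcripts were used. According to the methods and the submitters' processing notes, the authors trimmed reads (SOAPnuke), aligned them with HISAT2 2.1.0 to the build GRCh38.p13 and estimated expected counts and TPM with RSEM 1.3.1. The processing notes also name Bowtie2 2.3.4.3, and which alignment RSEM used was not checked. Whether strand was used in counting is not given in the sources used here. Columns of FPKM and group averages were not used here. RSEM divides reads between similar transcripts, so transcript values are less certain than gene sums, which equalled the sum of their transcripts within 0.1 counts in 100% of values.

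Expected counts were rounded. The 13657 genes that passed filterByExpr were tested with edgeR 4.0.16 (R 4.3.3; quasi-likelihood test, TMM, 1 fit of 4 groups without covariates), with Benjamini-Hochberg adjustment per comparison over all tested genes. Calls needed a log2 fold change of 1 or more in size with an adjusted p no higher than 0.05, the thresholds of the study, which used DESeq2. A gene near 0 counts in CTRL and hnCD16, or in FR1 and FR2, passed filterByExpr only through the other groups. Between the pairs it could only be called higher in those groups. DESeq2 1.42.0 and limma 3.58.1 were run as alternatives. CPM are counts scaled to the TMM library size. Relative gene length was taken as summed counts over summed TPM, a comparison added after the spread of ZEB1 was seen. Only counting error is covered by the counting intervals and by the floor of 3 counts. No pair of libraries agreed within sampling noise.

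The 10 genes and all lists were chosen with earlier results of these data known. All 10 are described. Of each other list, at most the 2 highest and 2 lowest called log2 fold changes in FR1 against hnCD16 (mean of at least 1 CPM) are named, as well as the 3 genes most alike to the members with the highest and lowest fold change. NCR1, NCAM1, GNLY, KLRD1, NKG7, TYROBP, CD3D, CD28, PAX5, TCF3, TCF4, CBFB, RUNX1, TOX2, S1PR5, CX3CR1, B3GAT1 and FGFBP2 are listed genes named for context. Some were named after their values were seen. Coordinates and promoters are from RefSeq on GRCh38.p14.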

Additional observations from a re-analysis of the deposited data

How the results depend on the processing

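Alternatives were run for every count of called genes and every log2 fold change of the 10 genes in 4 comparisons. Of 585 values of single genes, 582 kept their call or their lack of one, 3 fell below the fold threshold and 0 reversed while significant. The 3 were TOX in FR1 against hnCD16, at 0.985 with library size only, 0.957 with limma on log2(TPM + 1) and 0.993 with limma on log2(TPM + 0.1). A kept call does not mean a kept size or sign. ZEB2 in FR1 against hnCD16 ranged from 4.472 to 14.064, and TBX21 in hnCD16 against CTRL, never called, from −0.751 to 3.802. Of 96 counts of called genes, 92 were within 1.5 times the count given. With at least 10 counts required in every library, TBX21, PRDM1 and ZEB2 were not tested, and the count fell to 4 in FR1 against CTRL and 5 in FR2 against CTRL. Without a fold threshold it was 4 in hnCD16 against CTRL and 2 in FR1 against FR2. Leaving out any 1 library and all other settings gave 6 to 9 genes in FR1 against hnCD16 and in FR2 against hnCD16. The median of all genes shifted by more than 0.1 with library size only (−0.22 in FR1 against CTRL, −0.12 in hnCD16 against CTRL) and with limma on TPM (−0.23 in FR1 against CTRL with a pseudocount of 0.1). Ratios of expected counts differ from ratios of TPM almost only by a constant factor of length, so this alternative says nothing about stability.

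The correlation of same-numbered deviations was over 0.1 for every number in none of the 6 comparisons (0.338, 0.02 and 0.404 in hnCD16 against CTRL). In hnCD16 against CTRL its mean was 0.254, against −0.127 for libraries of different numbers. In the other comparisons the mean for the same number was between −0.0349 and 0.0869. Whether libraries of the same number were handled together was not tested. With the replicate block, the counts of called genes were 9, 9, 7, 8, 0 and 0, as without it, and 4 genes in place of 2 had an adjusted p of at most 0.05 in FR1 against FR2, with TOX and RUNX3 added, and 10 in place of 9 in FR2 against hnCD16, with ZEB1 added. In FR2 against CTRL, which is not among the 4 comparisons above, EOMES lost its call with library size only and with limma, where the count was 7. Counts of 0 to 5 per group limit TBX21, PRDM1 and ZEB2 in CTRL and hnCD16.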
